A study of Mus musculus with 41 samples.

Results

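Collagens are described here as the 43 genes, of 34591 entries in the deposited mouse expression table, whose symbol is Col followed by a type number, the letter a and a chain number, such as Col1a1 or Col4a5. The choice used names and no measured value, and it did not match Emid2, an older symbol of a further collagen gene. RNA sequencing of 41 libraries in 6 groups gave FPKM values, that is, fragments counted per length of the gene model and scaled to the depth of the library, so that levels can be compared between genes. The 29 brainstem tumors carried the Cre driver Nestin-creERT2 together with LSL-PDGFRαV544ins, Trp53flox/flox and a tagged H3f3a allele, which was H3f3aLSL-K27M-Tag/+ in 20 tumors (K27M) and H3f3aLSL-WT-Tag/+ in 9 (WT-Tag). The 12 neurosphere cultures came from forebrain or hindbrain of e15.5 embryos, carried Nestin-cre and one of the same tagged alleles, and held neither the PDGFRα nor the Trp53 allele; there were 3 cultures each of forebrain K27M, forebrain WT-Tag, hindbrain K27M and hindbrain WT-Tag. All groups thus express Cre from Nestin sequences, which are active in neural progenitors, and all carry a tagged H3.3, so that the comparison of K27M with WT-Tag is one of mutant against wild-type tagged histone. The labels give no age for the tumors, and the cultures were numbered by an experiment 1 to 3, with 1 culture letter shared by the forebrain and the hindbrain culture of a genotype; in experiment 3 the WT-Tag cultures were labelled male and the K27M cultures female. The table gives 1 value per gene, so the mutant and the wild-type H3f3a transcript could not be told apart in it.

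Collagens are proteins of the extracellular matrix in which 3 chains wind into a triple helix, and each chain has a gene of its own. Fibrillar collagens assemble into banded fibers, fibril-associated collagens sit on the surface of those fibers, and type IV collagen forms the sheet of the basement membrane around blood vessels and at the surface of the brain. In the brain, most fibrillar collagen belongs to vessel walls and meninges, while neural progenitors and glioma cells also make certain chains. Chains that form 1 molecule, such as α1(IV) and α2(IV), must be made together.

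Relative sequencing depth of the libraries, estimated from the steps between low FPKM values, lay between 0.48 and 1.57 of the median library. Lists of 7 to 12 marker genes were summed to check the labelled material. Neural progenitor markers summed to 2206 to 2643 FPKM in the cultures, and endothelial markers to 0.849 to 1.92 in the cultures against 24.96 to 75.8 in the tumors. Macrophage and microglia markers reached at most 2.73 in a culture and at least 174 in a tumor. Single libraries stood apart. K27M tumor 13 held 2704 FPKM of choroid plexus markers, with a median of 2.40 over the K27M tumors, and the Xist level went against the sex label in WT-Tag tumors 8 (labelled female, 0.031 FPKM) and 9 (labelled male, 54.5) and was low in K27M tumor 14 (labelled female, 1.90). Hindbrain WT-Tag culture 1 differed from its 2 replicates in several genes described here. In 13 of the 43 collagen genes an exon overlapped another gene in the mouse annotation, 10 of them on the opposite strand, and no source used here says whether strand entered the counting; this concerns Col4a1, Col4a2, Col5a1, Col9a3 and Col15a1 (opposite strand) and Col3a1, Col7a1 and Col20a1 (same strand) below.

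Most collagen genes were low in culture and higher in tumors, and a small set was high everywhere. Col11a1, Col16a1, Col4a1, Col4a2, Col4a5 and Col9a3 were at 1 FPKM or more in all 41 libraries, 10 genes were in every tumor and 8 in every culture. Col10a1, Col17a1, Col4a3, Col6a4 and Col6a6 stayed under 1 FPKM in every library. For 36 of the 43 genes the median of a tumor group was above the median of every culture group. These 36 include the 5 genes that stayed under 1 FPKM in every library. The share of all genes with such medians was not counted. In the fits of tumors against hindbrain cultures, 54.9% (K27M) and 58.5% (WT-Tag) of all genes tested had a positive change. The summed level of all 43 genes had a median of 326 FPKM in K27M tumors (116 to 746) and 389 in WT-Tag tumors (106 to 620), against 73.2 (K27M) and 75.8 (WT-Tag) in cultured forebrain cells, and 96.1 (K27M) and 72.3 (WT-Tag) in cultured hindbrain cells. In bulk RNA, more cells of a collagen-making type and more collagen RNA per cell cannot be told apart.

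**Figure D1:**
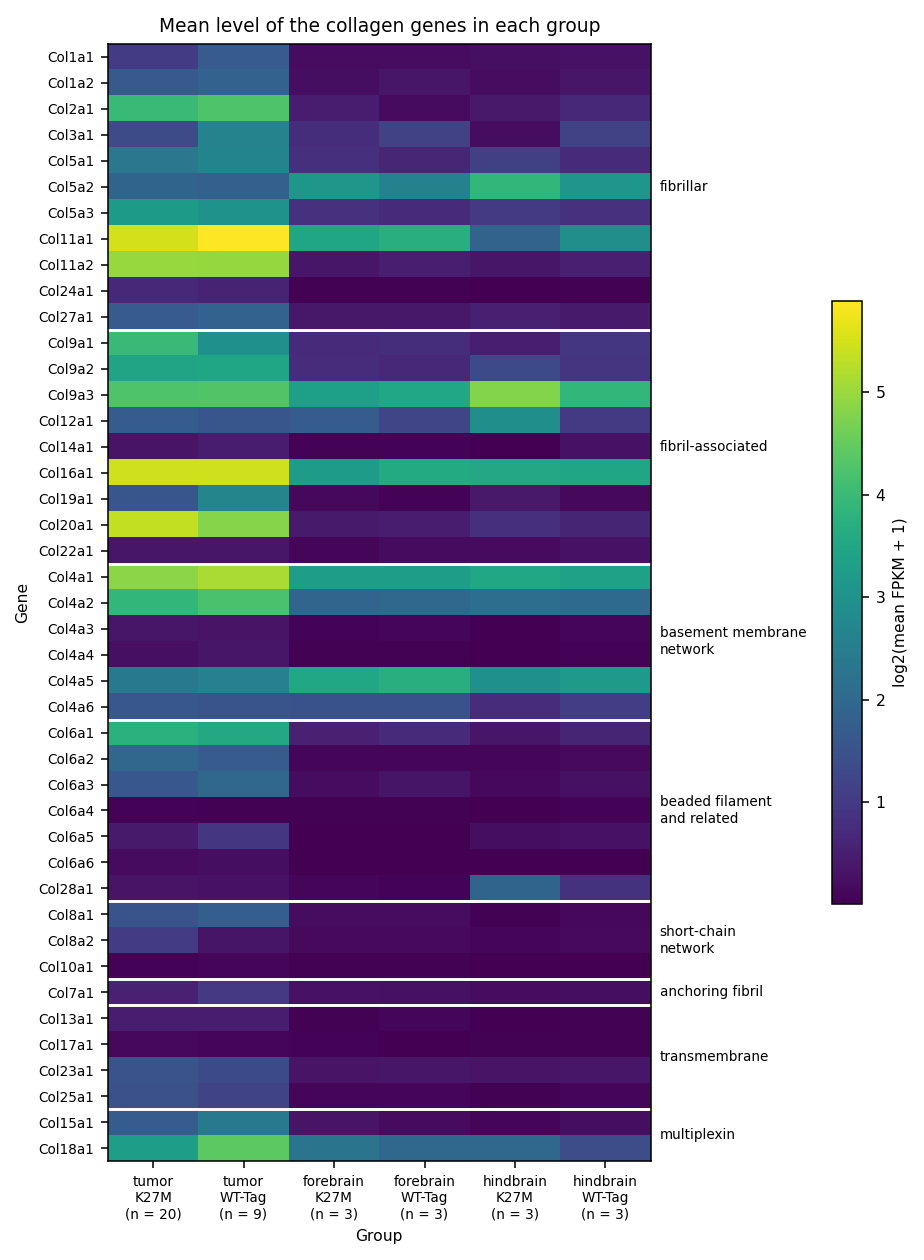
Mean level of the 43 collagen genes (vertical axis, grouped by class) in the 6 groups (horizontal axis, with n), shown as color on a log2(mean FPKM + 1) scale. Col11a1, Col16a1, Col20a1, Col11a2 and Col4a1 are the brightest in the tumor columns, and Col9a3, Col5a2, Col12a1 and Col28a1 are brighter in the hindbrain K27M column than in the other culture columns.

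The 10 genes with the highest mean over the 6 groups came from 4 classes. Among the fibrillar chains, Col11a1, which nucleates thin fibrils, ranked first in both tumor groups with 44.6 ± 27.2 FPKM (SD, n = 20) in K27M and 58.3 ± 38.2 (SD, n = 9) in WT-Tag tumors, ranked second in forebrain cultures with 10.2 ± 1.04 and 11.9 ± 0.600 (SD, n = 3 each), and fell to rank 10 in hindbrain K27M cultures with 2.66 ± 0.478, against 6.57 ± 2.18 in hindbrain WT-Tag. Its partner Col11a2 was at 30.5 ± 11.7 and 30.3 ± 32.2 FPKM in K27M and WT-Tag tumors and at 0.281 to 0.428 in the means of the 4 culture groups. Col5a2, which forms type V fibrils, had the opposite pattern, with 2.73 ± 2.15 and 2.49 ± 3.19 FPKM in the 2 tumor groups and 5.04 to 13.97 in the culture means, the highest in hindbrain K27M. By group mean, Col11a1 was thus the highest fibrillar chain in tumors and forebrain cultures, and Col5a2 in hindbrain cultures. In hindbrain WT-Tag this rested on culture 1, with Col5a2 at 10.4 and Col11a1 at 4.13 FPKM. Col11a1 was above Col5a2 in cultures 2 (7.24 against 6.22) and 3 (8.33 against 5.98).

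Among the fibril-associated chains, Col16a1, which joins other collagens in the matrix around cells, had a mean of 43.3 FPKM in both tumor groups (SD 21.3 in K27M and 23.8 in WT-Tag) and 8.43 to 11.1 in the culture means. Col9a3, a type IX chain known from cartilage, was the collagen with the highest level in hindbrain cultures, at 26.97 ± 7.56 FPKM (K27M) and 13.97 ± 5.75 (WT-Tag), beside 9.06 and 10.4 in forebrain cultures and 18.4 and 18.6 in tumors. Col20a1 was at 39.8 ± 25.2 and 27.3 ± 26.2 FPKM in K27M and WT-Tag tumors and at 0.338 to 0.771 in the culture means. This gene was thus near the top of the list in tumors and under 1 FPKM in the mean of each culture group.

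The basement membrane chains Col4a1 and Col4a2 had means of 28.2 ± 17.8 and 14.02 ± 8.96 FPKM in K27M tumors and 34.5 ± 20.3 and 17.4 ± 9.70 in WT-Tag tumors. In the culture groups their means were 8.83 to 10.48 and 2.80 to 3.40 FPKM. Col4a5, a chain of other type IV networks that lies on the X chromosome, was the highest collagen of forebrain cultures (10.4 ± 1.68 in K27M, 12.2 ± 1.88 in WT-Tag), was at 6.82 and 8.08 in hindbrain K27M and WT-Tag cultures, and at 4.18 ± 3.72 and 4.96 ± 6.06 in K27M and WT-Tag tumors. Col18a1, whose C-terminal fragment is endostatin, was at 8.82 ± 10.1 FPKM (K27M) and 20.3 ± 22.5 (WT-Tag) in tumors, with culture means of 1.62 to 3.82. Among type IV genes, the chains of the vessel-type network were thus higher in tumors and Col4a5 was not.

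In hindbrain neurospheres, K27M cultures held more transcript of the fibril-associated chains Col12a1, Col9a3 and Col9a2, of Col28a1 and of Col5a1 than WT-Tag cultures, and less of Col11a1. These 6 of the 14 collagen genes tested passed an adjusted p of 0.05 (limma on log2(FPKM + 1), adjusted over all 13190 genes tested), 5 higher and 1 lower, where 13.5% of all genes passed, 8.42% higher and 5.13% lower. The other 29 collagen genes were under the level filter of 1 FPKM in at least 3 culture libraries. Col9a2 and Col5a1 reached 1 FPKM in hindbrain K27M cultures alone among the cultures, so they could be tested only because that group was high. Col28a1 reached it in only 1 further culture, hindbrain WT-Tag culture 1 (1.24 FPKM), and so needed that group too. The median log2 change of the 14 genes was 0.27, beside 0.09 over all genes.

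Col12a1, whose protein links fibrils to the surrounding matrix, showed the largest change. In experiments 1, 2 and 3 it was at 8.60, 5.79 and 5.69 FPKM in hindbrain K27M cultures and at 1.79, 0.609 and 0.573 in hindbrain WT-Tag cultures, a log2 change of 1.98 ± 0.21 (SE; adjusted p 0.000623). The groups did not overlap, and WT-Tag culture 1 was the highest of its group. Col9a3 was at 25.1, 20.5 and 35.3 FPKM in K27M and at 20.6, 10.3 and 11.001 in WT-Tag cultures (log2 change 0.93 ± 0.23, adjusted p 0.0256). Here WT-Tag culture 1 lay just above K27M culture 2, so the groups overlapped. The second type IX chain, Col9a2, was at 1.66, 1.28 and 1.64 FPKM in K27M and 0.986, 0.746 and 0.831 in WT-Tag cultures (0.44 ± 0.12, adjusted p 0.0319), without overlap; the third, Col9a1, had group means of 0.418 and 0.917 FPKM and was not tested.

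Col28a1, a relative of the type VI collagens that is known from peripheral glia, was at 2.48, 1.34 and 4.40 FPKM in hindbrain K27M cultures and at 1.24, 0.614 and 0.614 in hindbrain WT-Tag cultures (0.97 ± 0.25, adjusted p 0.0293). It was under 0.081 FPKM in all 6 forebrain cultures. Col5a1, a type V chain, was at 1.30, 1.09 and 1.15 FPKM in hindbrain K27M and at 0.640, 0.531 and 0.743 in WT-Tag cultures (0.41 ± 0.12, adjusted p 0.0385). Neither pair of groups overlapped. In the other direction, Col11a1 was at 2.96, 2.11 and 2.92 FPKM in K27M and at 4.13, 7.24 and 8.33 in WT-Tag cultures (-1.01 ± 0.19, adjusted p 0.0083), again without overlap and with WT-Tag culture 1 nearest to the K27M cultures. Over all genes, 16.9% had K27M groups wholly above and 11.1% wholly below the WT-Tag group.

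**Figure D2:**
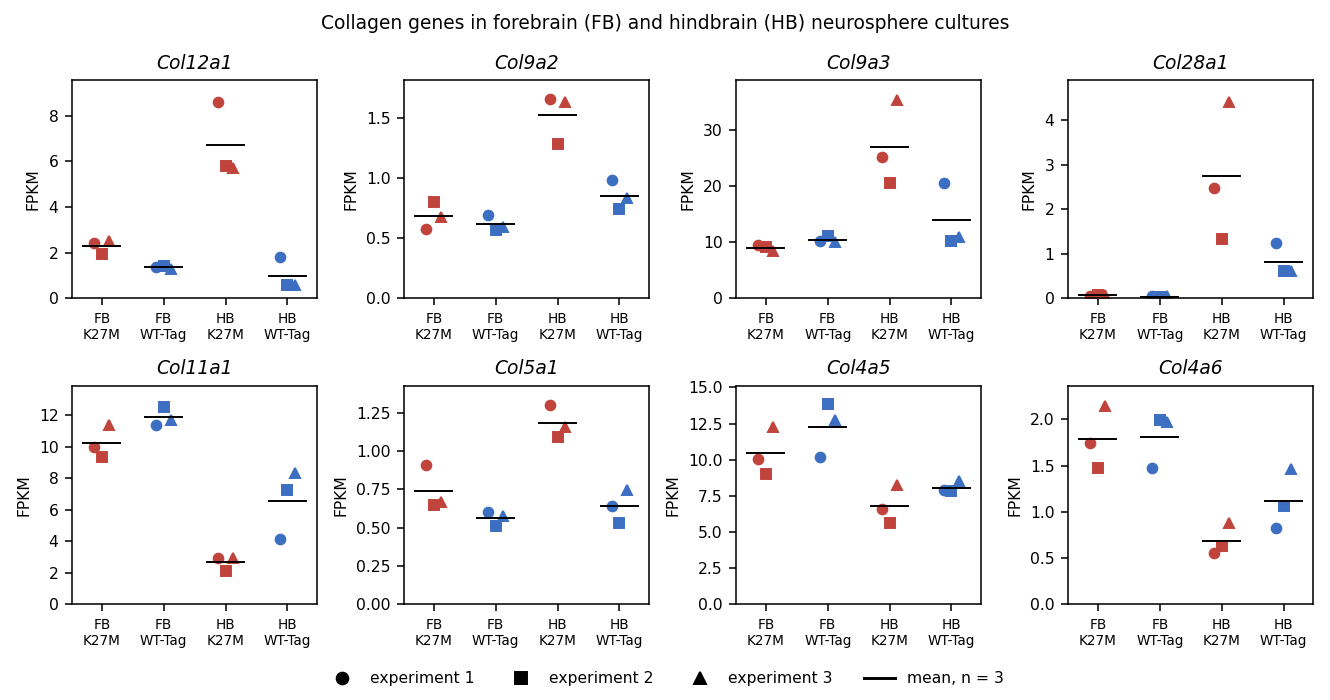
FPKM (vertical axis, from 0) of 8 collagen genes in single neurosphere cultures of the 4 culture groups (horizontal axis); the marker gives the experiment and the line the mean of 3 cultures. Col12a1 in hindbrain K27M lies at 5.69 to 8.60 FPKM, above all other cultures, and Col11a1 in hindbrain K27M at 2.11 to 2.96, below all others.

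Of the genes that did not pass, Col5a2 was at 12.3, 9.06 and 20.5 FPKM in hindbrain K27M and 10.4, 6.22 and 5.98 in WT-Tag cultures (0.78 ± 0.29, adjusted p 0.0987). Col18a1 was at 3.97, 2.58 and 2.36 against 1.45, 1.599 and 1.80 FPKM (0.58 ± 0.18, adjusted p 0.0573), without overlap, and passed with the experiment number as a replicate block, which gave 7 calls in all. Col3a1 had a change of -0.83 ± 0.35 (adjusted p 0.131). The 4 type IV genes tested had no member past the threshold, and Col4a1 was at 10.01, 7.45 and 13.999 FPKM in K27M and 10.9, 8.48 and 8.53 in WT-Tag cultures.

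Only Col12a1 and Col11a1 passed in each of the 6 fits that left out 1 hindbrain culture. Col28a1 and Col9a3 passed in 2 of 6, and Col9a2 and Col5a1 in 1 of the 3 in which they were tested. The number of collagen genes past the threshold was 2 without K27M culture 1, K27M culture 3, WT-Tag culture 2 or WT-Tag culture 3, was 4 without K27M culture 2, and was 8 without WT-Tag culture 1, when Col3a1 and Col5a2 passed too. Without experiment 3, in which the sex labels differ between the genotypes, Col12a1 alone passed, and Col11a1 had an adjusted p of 0.126 with a log2 change of -0.89. With a pseudocount of 0.1, Col28a1 (adjusted p 0.0598) and Col5a1 (0.054) did not pass. Col12a1 alone passed as well with the 2 hindbrain groups fitted by themselves, where Col11a1 had an adjusted p of 0.0632. The marker counts that follow stand beside 8.42% of all genes higher and 5.13% lower in hindbrain K27M cultures. Astrocyte markers moved with the genotype: 6 of the 8 tested were lower in hindbrain K27M cultures, with sums of 195, 204 and 214 FPKM against 385, 624 and 634 in WT-Tag. Pericyte markers summed to 43.3, 32.6 and 42.7 FPKM in K27M and to 44.0, 11.96 and 20.4 in WT-Tag cultures, so WT-Tag culture 1 lay just above the highest K27M culture there, and 0 of 4 passed. Mature oligodendrocyte markers summed to a median of 21.6 FPKM (K27M) and 73.1 (WT-Tag), without overlap and with 1 of 5 lower. Of the oligodendrocyte precursor markers 2 of 7 were lower, and of the neural progenitor markers 2 of 10 were higher and 2 lower. The part of these markers in the collagen differences was not tested.

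The share of the summed collagen level that came from fibril-associated genes was 50.9%, 51.2% and 47.1% in hindbrain K27M cultures, 45.5%, 32.1% and 36.1% in hindbrain WT-Tag cultures and 25.3% to 33.4% in the forebrain cultures. The basement membrane genes contributed 21.3%, 22.3% and 22.9% in hindbrain K27M and 28.2%, 31.6% and 29.9% in hindbrain WT-Tag cultures. The summed basement membrane level itself overlapped, with 16.1 to 27.7 FPKM in K27M and 20.4 to 22.95 in WT-Tag cultures, whereas the fibril-associated sum was 37.1 to 56.7 in K27M and 20.7 to 37.0 in WT-Tag cultures.

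In forebrain neurospheres, 0 of the same 14 genes differed between K27M and WT-Tag by limma, with 0.356% of all genes past the threshold, and 1 of the 14 had an unadjusted p under 0.05. That gene was Col12a1, at 2.44, 1.96 and 2.49 FPKM in K27M and 1.36, 1.40 and 1.31 in WT-Tag cultures (0.48 ± 0.21, adjusted p 0.362). Its groups did not overlap. Col5a2 was at 7.48, 5.83 and 9.81 FPKM in K27M and 3.66, 5.64 and 5.82 in WT-Tag cultures (0.52 ± 0.29, adjusted p 0.475), and Col18a1 had a change of 0.32 ± 0.18 (adjusted p 0.496). On the negative side stood Col3a1 (-0.37 ± 0.35, adjusted p 0.687), Col16a1 (-0.36 ± 0.17, adjusted p 0.419) and Col4a5 (-0.21 ± 0.15, adjusted p 0.586). Of the 14 genes, 4 had K27M cultures wholly above and 2 wholly below the WT-Tag cultures, where 15% and 9.84% of all genes did.

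The difference between the K27M effect in forebrain and that in hindbrain was tested as an interaction. By limma, 0 of the 14 collagen genes passed, as did 0.0379% of all genes (0.00758% with a positive and 0.0303% with a negative difference), and 5 of the 14 had an unadjusted p under 0.05. The forebrain change minus the hindbrain change was -1.50 ± 0.30 for Col12a1 (adjusted p 0.201), -1.11 ± 0.33 for Col9a3 (adjusted p 0.532) and -0.93 ± 0.35 for Col28a1 (adjusted p 0.671). It was 0.81 ± 0.27 for Col11a1 (adjusted p 0.558), 0.46 ± 0.49 for Col3a1 and 0.31 ± 0.21 for Col4a6. Without hindbrain WT-Tag culture 1, Col12a1 (adjusted p 0.00339), Col11a1 (0.0127) and Col9a3 (0.0164) passed; with that culture left out, 2.24% of all genes did. None of the other 11 omissions of a single culture gave a collagen call.

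Between regions, K27M cultures of hindbrain held more Col28a1, Col9a3, Col12a1 and Col9a2 and less Col11a1, Col4a6 and Col4a5 than K27M cultures of forebrain. These 7 of 14 genes passed, 4 higher and 3 lower in hindbrain, where 7.92% of all genes did (4.47% higher, 3.45% lower). This comparison uses the same hindbrain K27M cultures as the one above. Col9a2 and Col28a1, both higher there, again passed the level filter only through that group, so their higher level is in part given by it. Col28a1 was at 0.061, 0.068 and 0.080 FPKM in forebrain K27M cultures, against the 1.34 to 4.40 in hindbrain (1.72 ± 0.25, adjusted p 0.00187). Col9a3 was at 9.52, 9.21 and 8.45 in forebrain (1.44 ± 0.23, adjusted p 0.0036), and the changes were 1.21 ± 0.21 for Col12a1 (adjusted p 0.00543) and 0.58 ± 0.12 for Col9a2 (adjusted p 0.0118). Col11a1 was at 9.97, 9.34 and 11.4 FPKM in forebrain K27M cultures (-1.62 ± 0.19, adjusted p 0.000458). In the same comparison 3 of 8 astrocyte and 2 of 10 neural progenitor markers were lower in hindbrain; astrocyte markers summed to 352 to 428 FPKM in forebrain and 195 to 214 in hindbrain K27M cultures, and mature oligodendrocyte markers to medians of 50.4 and 21.6. Their part in the collagen differences was not tested here either. For all 7 genes the 2 regions did not overlap, where 16.6% of all genes lay wholly higher and 15.3% wholly lower in hindbrain.

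The 2 X-linked type IV genes moved in the same direction. Col4a5 was at 10.04, 8.996 and 12.3 FPKM in forebrain and 6.58, 5.61 and 8.28 in hindbrain K27M cultures (-0.55 ± 0.15, adjusted p 0.0452). Col4a6 was at 1.75, 1.48 and 2.15 against 0.553, 0.628 and 0.881 FPKM (-0.72 ± 0.15, adjusted p 0.0136). Col11a1, Col12a1, Col28a1 and Col9a3 passed in each of the 6 fits that left out 1 K27M culture, Col4a6 in 4 of 6, Col9a2 in 2 of the 3 in which it was tested and Col4a5 in 1 of 6. Without experiment 3 the count was 2. With the culture letter as a replicate block it was 6, with Col4a6 (adjusted p 0.0583) and Col9a2 (0.121) lost and Col5a2 gained.

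WT-Tag cultures of the 2 regions had 0 of 14 collagen genes past the threshold by limma, with 1.82% of all genes past it and 5 of the 14 at an unadjusted p under 0.05. The changes in the direction of hindbrain were 0.79 ± 0.25 for Col28a1 (adjusted p 0.193), 0.48 ± 0.29 for Col5a2 (0.638) and 0.33 ± 0.23 for Col9a3 (0.716). Col11a1 was at 11.4, 12.5 and 11.7 FPKM in forebrain WT-Tag cultures against 4.13, 7.24 and 8.33 in hindbrain (-0.81 ± 0.19, adjusted p 0.0612), and Col18a1 and Col4a5 had changes of -0.56 ± 0.18 (0.208) and -0.54 ± 0.15 (0.127). Of the 14 genes, 3 lay wholly higher and 4 wholly lower in hindbrain, where 5.99% and 8.69% of all genes did. Col11a1 passed without hindbrain WT-Tag culture 1 or 3, or with each library scaled to the same sum (adjusted p 0.0399). Col28a1 passed with a pseudocount of 0.1 (adjusted p 0.0163), which gives more weight to its forebrain values of 0.029 to 0.053 FPKM.

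Upstream sequence is shown for the genes of these culture comparisons that have an entry in the RefSeq promoter table (GRCm38.p6), which lists 35 of the 43 collagens: Col11a1, Col5a1 and Col28a1, which changed in hindbrain K27M cultures, and the head-to-head pair Col4a5 and Col4a6, which changed between regions. Each line gives 215 bases, from base 250 to base 36 before the annotated start, 5′ to 3′ on the strand of the gene. Capitals mark matches, on either strand, to 4 short promoter motifs whose letters follow after the sequences. No marked match overlaps another. The stretches lie at chr3:114030290-114030504 (plus strand, Col11a1), chr2:27886175-27886389 (plus, Col5a1), chr6:8192653-8192867 (minus, Col28a1), chrX:141475169-141475383 (plus, Col4a5) and chrX:141474112-141474326 (minus, Col4a6).
Col11a1: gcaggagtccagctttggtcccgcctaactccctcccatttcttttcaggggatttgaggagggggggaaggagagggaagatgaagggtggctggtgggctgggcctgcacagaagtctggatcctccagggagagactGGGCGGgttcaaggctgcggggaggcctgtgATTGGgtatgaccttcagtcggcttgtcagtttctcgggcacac
Col5a1: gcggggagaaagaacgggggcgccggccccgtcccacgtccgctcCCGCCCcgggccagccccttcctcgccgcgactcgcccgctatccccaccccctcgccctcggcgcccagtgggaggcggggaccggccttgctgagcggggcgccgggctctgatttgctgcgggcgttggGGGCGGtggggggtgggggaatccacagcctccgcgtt
Col28a1: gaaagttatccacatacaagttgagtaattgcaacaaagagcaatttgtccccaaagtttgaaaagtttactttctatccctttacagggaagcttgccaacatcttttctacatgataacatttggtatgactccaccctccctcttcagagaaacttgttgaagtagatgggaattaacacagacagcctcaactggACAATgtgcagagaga
Col4a5: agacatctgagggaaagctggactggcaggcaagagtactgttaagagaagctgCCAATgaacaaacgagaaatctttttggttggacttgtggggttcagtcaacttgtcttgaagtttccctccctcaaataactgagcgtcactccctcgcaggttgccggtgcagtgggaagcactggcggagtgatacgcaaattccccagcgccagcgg
Col4a6: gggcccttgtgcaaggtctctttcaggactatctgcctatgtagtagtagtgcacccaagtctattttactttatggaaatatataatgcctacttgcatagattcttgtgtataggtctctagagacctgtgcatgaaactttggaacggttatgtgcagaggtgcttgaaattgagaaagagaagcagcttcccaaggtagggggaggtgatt

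The Col11a1 stretch held 1 GC box and 1 CCAAT box, the Col5a1 stretch 2 GC boxes, the Col28a1 stretch 1 SOX core, the Col4a5 stretch 1 CCAAT box and the Col4a6 stretch none of the 4 motifs. The GC box was searched as GGGCGG, which 27.7% of all 32851 promoter entries held in the same window. The CCAAT box, searched by those letters, was in 30.4% of them. The TATA box was searched as TATAAA and was in 9.75%. The core of SOX sites was searched as ACAAT and was in 25.1%. The GC content was 77.2% for Col5a1, 60% for Col11a1, 52.1% for Col4a5, 43.3% for Col4a6 and 39.5% for Col28a1. The start sites of Col4a6 and Col4a5 lie 1343 bases apart on chromosome X and point away from each other. Those of Col4a1 and Col4a2 on chromosome 8 are 21 bases apart, with the 2 transcripts overlapping by 22 bases.

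Genes of collagen synthesis and of the surrounding matrix were read from lists of related genes in the same fits. In hindbrain K27M against WT-Tag cultures, where 8.42% of all genes rose and 5.13% fell, 6 of 17 tested genes of collagen modification and folding rose and none fell. They included the collagen galactosyltransferase Glt25d2 (1.03 ± 0.25, adjusted p 0.0226), the lysyl hydroxylase Plod2 (0.81 ± 0.19, 0.0206) and the prolyl hydroxylase subunit P4ha1 (0.80 ± 0.24, 0.0493). Of 5 processing genes, Adamts3, which removes the N-propeptide of fibrillar collagen, rose by 1.79 ± 0.17 (adjusted p 0.000369), and of 7 receptors Mrc2, which takes up collagen for degradation, rose by 0.64 ± 0.18 (0.0369). Of 9 degrading enzymes and inhibitors, Timp4 (-1.58 ± 0.20, 0.00137) and Mmp16 (-1.13 ± 0.15, 0.00159) fell. Basement membrane partners rose in 4 of 13, among them Lama4 (1.33 ± 0.21), Sparc (1.13 ± 0.27) and Lamb1 (0.68 ± 0.14), and interstitial partners in 6 of 10, among them Fbln2 (2.12 ± 0.48), Thbs1 (1.76 ± 0.28) and Tnc (1.10 ± 0.23). No modification gene, processing gene, receptor or matrix partner fell past the threshold in this comparison.

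In forebrain K27M against WT-Tag cultures none of these genes passed. The largest changes of each list were 0.79 for Plod2 and 0.67 for P4ha2, 0.64 for Adamts3 and 0.63 for Loxl2, 0.36 for Mrc2 and 0.26 for Ddr2, -0.59 for Timp3 and 0.49 for Mmp15, 0.43 for Lama4 and -0.37 for Npnt, and -1.38 for Sparcl1 and 1.11 for Tnc, with adjusted p-values from 0.0733 (Timp3) upward. None passed for the difference between the regional effects either, with the largest values at -0.91 for Glt25d2 and -0.86 for Fkbp14, -1.14 for Adamts3 and -0.36 for Loxl3, -0.35 for Itgb1 and 0.30 for Gpr126, 1.32 for Timp4 and 1.12 for Mmp16, -0.91 for Lama4 and -0.78 for Sparc, and -1.82 for Fbln2 and -1.25 for Thbs1. Adamts3 and Plod2 had positive changes in both regions.

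Between regions, 7 of 17 modification genes were higher in hindbrain than in forebrain K27M cultures, among them Plod2 (1.19), Glt25d2 (1.16) and Fkbp10 (1.02), as were Adamts3 (1.39) and Loxl3 (0.72) of 5 processing genes. Mrc2 was higher (0.70) and the integrin chain Itga2 lower (-0.86) of 7 receptors. Timp3 (0.99) and Timp2 (0.61) were higher of 9 degradation genes, 5 of 13 basement membrane partners were higher, led by Lama4 (1.97), Sparc (1.79) and Npnt (1.30), and 4 of 10 interstitial partners, led by Thbs1 (1.502), Tnc (1.11) and Tgfbi (1.07). In WT-Tag cultures, where 1.82% of all genes passed beside 7.92% in K27M, the genes that passed were as follows: Plod2 (1.18), Timp4 (1.23), Npnt (1.31), Lama4 (1.07), Lamb1 (0.66) and Tnc (1.12) were higher in hindbrain. None of 5 processing genes and none of 7 receptors passed there, with Loxl2 at 1.01, Adamts14 at -0.59, Itga2 at -0.71 and Mrc2 at 0.41.

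Between K27M and WT-Tag tumors, 0 of the 28 collagen genes tested passed by limma, where 0.0846% of 15360 genes did (0.0456% higher, 0.0391% lower), and 1 had an unadjusted p under 0.05. The level filter, 1 FPKM in at least 9 tumors, left out 15 collagens. Of the 28 changes, 16 were positive, and their median was 0.05, beside -0.01 over all genes. Col9a1, a type IX chain, had the largest positive change, with 1.86 FPKM in the lowest, 11.3 in the median and 69.6 in the highest K27M tumor, against 1.77, 3.02 and 21.7 in WT-Tag tumors (1.16 ± 0.43, adjusted p 0.538). The ranges of the 2 genotypes overlapped. Col2a1 (0.86 ± 0.59, adjusted p 0.776) and Col20a1 (0.76 ± 0.46, 0.762) followed.

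The multiplexins had the largest negative changes together with Col19a1. Col18a1 had a lowest, median and highest value of 1.84, 5.35 and 37.6 FPKM in K27M and 0.702, 10.3 and 61.6 in WT-Tag tumors (-0.83 ± 0.47, adjusted p 0.746). Col15a1 had a change of -0.64 ± 0.36 (0.748) and Col19a1 of -0.58 ± 0.29 (0.698). None of the pathway genes passed in the tumors. The largest changes of each list were -0.52 for Fkbp14 and -0.25 for P4ha1, -0.76 for Adamts14 and 0.40 for Pcolce2, -0.29 for Itgb1 and -0.21 for Lair1, -0.80 for Mmp14 and 0.43 for Timp4, -0.40 for Lamb1 and -0.25 for Nid1, and -1.12 for Fbn2 and 0.56 for Tnc, with adjusted p-values of 0.314 (Adamts14) or more. No collagen passed with the sex label as a covariate, in tumors labelled female, or without WT-Tag tumors 8 and 9.

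**Figure D3:**
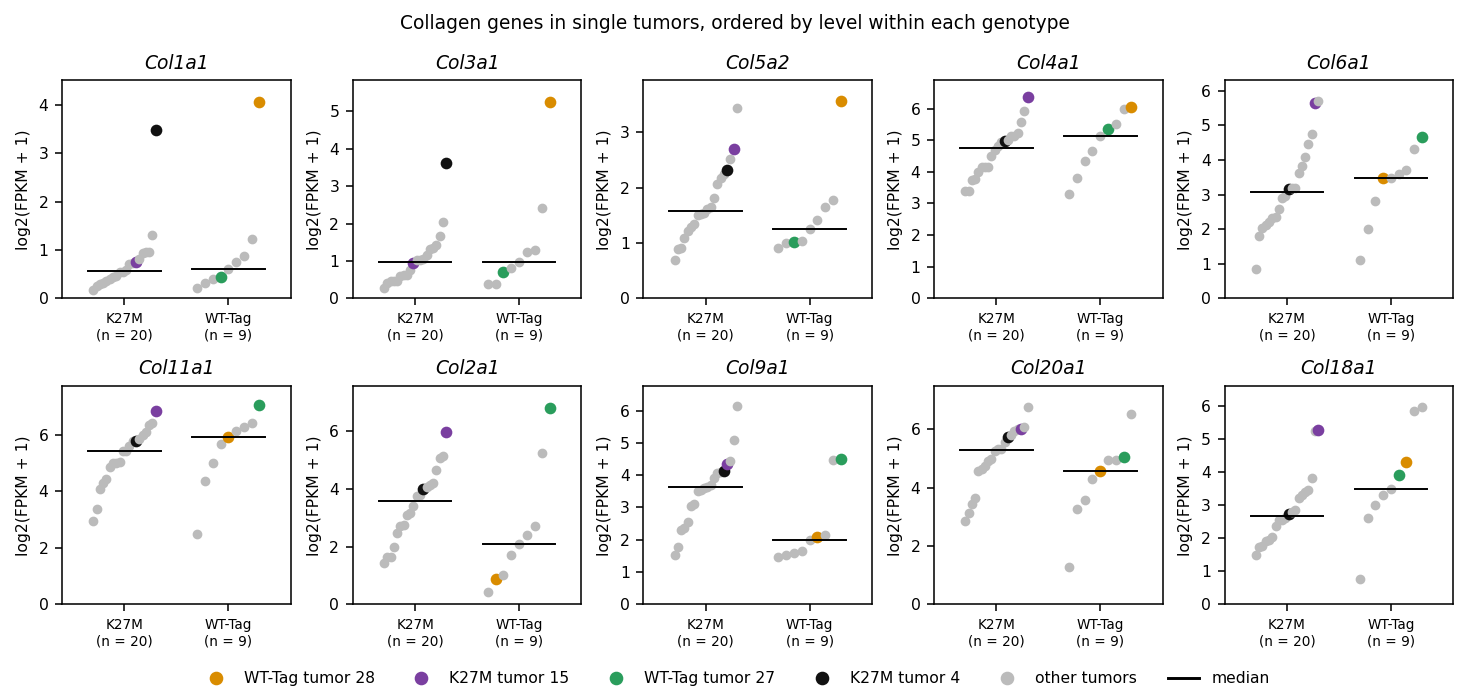
Level of 10 collagen genes, log2(FPKM + 1) (vertical axis), in single K27M and WT-Tag tumors (horizontal axis), ordered by level within each genotype; lines are medians and 4 tumors are colored. WT-Tag tumor 28 and K27M tumor 4 stand far above all others for Col1a1 (15.6 and 10.1 FPKM), WT-Tag tumor 27 is highest for Col2a1 and Col11a1, and K27M tumor 15 for Col4a1.

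Single tumors differed widely. The ratio of the highest tumor to the median tumor was 37.9 for Col3a1, 30.7 for Col1a1, 26.6 for Col8a2 and 17.1 for Col4a6, but 2.32 for Col16a1, 2.76 for Col11a1 and 2.98 for Col4a1. The median tumor was at 0.981 FPKM for Col3a1 and 0.509 for Col1a1, but at 40.8 for Col16a1 and 47.7 for Col11a1. Col4a5, at 1 FPKM or more in every library, had a ratio of 7.0, and Col24a1, a low gene, one of 2.66. The part of level in this order was not tested. Col1a1 was at 0.131, 0.489 and 10.1 FPKM in the lowest, median and highest K27M tumor and at 0.160, 0.520 and 15.6 in WT-Tag tumors. Col3a1 was at 0.221, 0.972 and 11.4 in K27M and at 0.305, 0.981 and 37.2 in WT-Tag tumors.

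The extreme values came from a few tumors, which led for different chains but were partly high for the same ones. WT-Tag tumor 28 was the highest of all 29 for 9 genes, Col1a1, Col1a2, Col3a1, Col5a2, Col6a3, Col7a1, Col8a1, Col10a1 and Col12a1, and its fibroblast and meningeal markers summed to 84.5 FPKM, beside medians of 19.3 and 18.1 in K27M and WT-Tag tumors. K27M tumor 4, the second highest for Col1a1, had the highest such sum of its group, 38.9. K27M tumor 15 was the highest for 7 genes, Col4a1 (80.5 FPKM), Col4a2 (44.0), Col5a3 (34.9), Col16a1 (94.6), Col6a2, Col13a1 and Col17a1, and had the highest endothelial marker sum, 75.8, beside a median of 43.0. Different tumors thus led for fibrillar chains of connective tissue and for basement membrane chains, but the sets were not separate. WT-Tag tumor 28 was also the second highest of all tumors for Col4a1 (64.6 FPKM) and Col4a2 (32.7). K27M tumor 15 was the second highest for Col11a1 (112 FPKM) and Col2a1 (61.8).

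WT-Tag tumor 27 was the highest for Col2a1 (111 FPKM), Col11a1 (132), Col11a2 (86.0) and Col27a1, which are chains known from cartilage. Its bone and cartilage markers summed to 89.4 FPKM, beside medians of 15.02 and 11.2, and its pericyte markers to 287, beside 92.2 and 72.3. K27M tumor 5, the highest for the type IX chains Col9a1 (69.6) and Col9a2 (48.6), had the highest bone and cartilage sum of its group, 49.5. K27M tumor 13, with the high choroid plexus sum, was the highest for Col8a2 (7.94) and Col25a1, and WT-Tag tumor 10 for Col19a1 (22.2), Col6a5 (4.79) and Col6a6. The part of these marker levels in the collagen values was not tested.

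Chains that share a molecule or a start region rose and fell together across tumors to very different degrees. Of 12 pairs, chosen as chains of 1 molecule or tissue or as contrasts, 8 passed an adjusted p of 0.05 over the pairs (Pearson's r of log2(FPKM + 1) in 29 tumors, 2-sided permutation test with 100000 resamples). Among the 8, Col1a1 with Dcn and Col4a1 with Pecam1 pair a collagen with a cell type marker. No other gene pairs were correlated, so how often pairs of any genes pass in these tumors is not known. Col4a1 and Col4a2 had r = 0.98 (rho = 0.98), 0.97 without the 2 tumors farthest from the median, 0.98 within K27M and 0.97 within WT-Tag tumors. Col6a1 and Col6a2, chains of the same type VI molecule, had r = 0.96 (rho = 0.96), and 0.95, 0.97 and 0.96 in the same 3 settings. These 2 pairs, together with Col1a1 with Col1a2 and with Col3a1, had a permutation p of 1e-05, the smallest that can be given, and an adjusted p of 3e-05.

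Pairs with Col1a1 leaned on WT-Tag tumor 28 and K27M tumor 4. Col1a1 and Col3a1 had r = 0.93 (rho = 0.82) in all tumors and 0.72 without those 2. Col1a1 and Col1a2 had r = 0.89 (rho = 0.79) and 0.70. Col1a1 and Col5a2 had r = 0.57 (rho = 0.59, adjusted permutation p 0.00587) and 0.33 without them (adjusted permutation p 0.129), with 0.30 within K27M and 0.96 within WT-Tag tumors, so the linear relation rested on those tumors. Its rank correlation was 0.52 without them (adjusted permutation p 0.00914) and 0.53 within K27M tumors (adjusted permutation p 0.0267). Col1a1 with Dcn, decorin, a fibroblast marker, had r = 0.67 (rho = 0.64, adjusted permutation p 4.8e-05) and 0.53 without them. Col4a1 with Pecam1, an endothelial marker, had r = 0.60 (rho = 0.59, adjusted permutation p 0.00098), 0.50 without the 2 farthest, 0.63 within K27M and 0.80 within WT-Tag tumors.

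**Figure D4:**
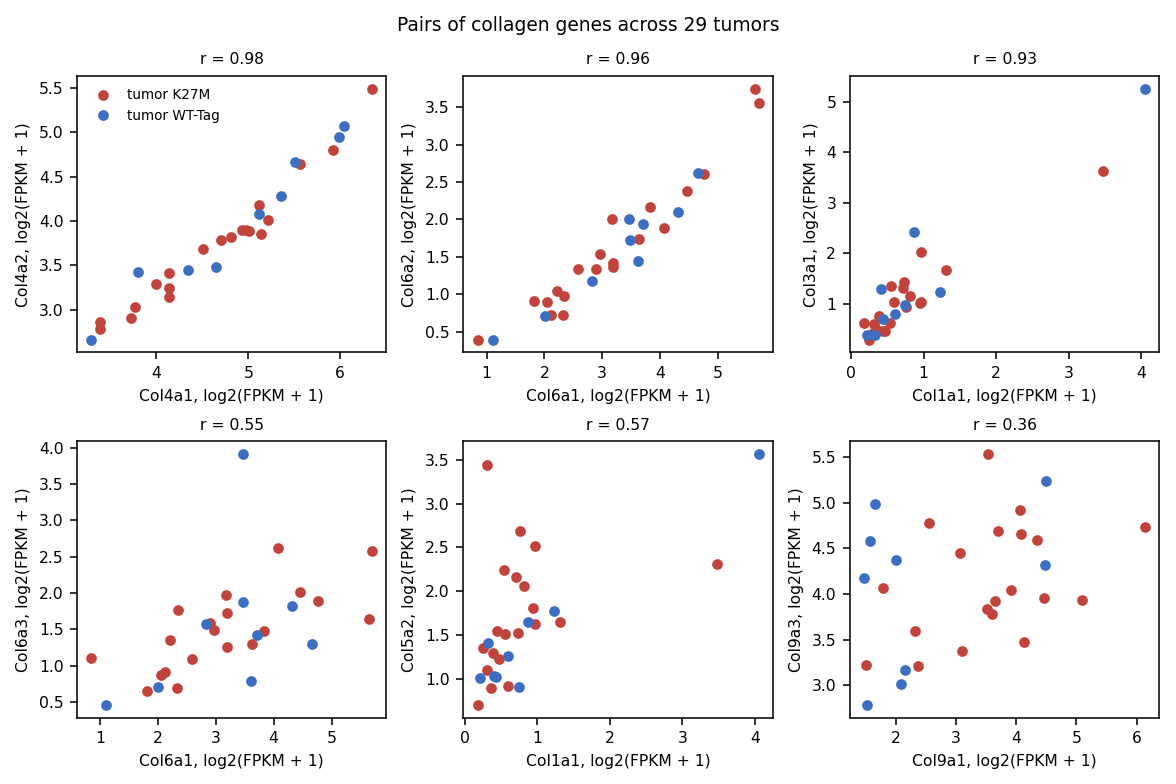
Each panel plots 1 pair of collagen genes, log2(FPKM + 1) on both axes, with 1 point per tumor (20 K27M, 9 WT-Tag) and r over all 29 above it. Col4a1 with Col4a2 and Col6a1 with Col6a2 lie along a line, whereas 2 tumors far to the right carry much of the relation of Col1a1 with Col3a1 and with Col5a2.

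The third type VI chain was less closely tied, with r = 0.55 for Col6a1 and Col6a3 (rho = 0.65, adjusted permutation p 0.00322), 0.72 within K27M and 0.40 within WT-Tag tumors. The type IX chains Col9a1 and Col9a3 had r = 0.36 (rho = 0.33, adjusted permutation p 0.0728), and the type VIII chains Col8a1 and Col8a2 r = 0.30 (rho = 0.16, 0.125), which did not pass. Within K27M tumors Col8a1 and Col8a2 had r = 0.52 (adjusted permutation p 0.0266) with rho = 0.27, and within WT-Tag tumors r = -0.30. Nor did the contrast pairs Col1a1 with Col4a1 (r = 0.30, rho = 0.19, adjusted permutation p 0.125) and Col1a1 with Col9a1 (r = -0.05, rho = -0.02, 0.813).

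Tumors held more transcript of most collagens than hindbrain cultures of the same tagged allele, with Col11a2, Col20a1 and Col11a1 leading in K27M. Of 33 collagen genes tested, 22 were higher and 3 lower in K27M tumors than in K27M hindbrain cultures, where 59.6% of all 16803 genes passed, 33.1% higher and 26.5% lower. In WT-Tag, 20 were higher and 2 lower, where 46.3% of all genes passed, 28.9% higher and 17.4% lower. The median log2 change of the 33 was 1.17 in K27M, beside 0.10 over all genes, and 1.28 in WT-Tag, beside 0.16. Of the 33 genes, 18 lay wholly above and 1 wholly below the cultures in K27M, where 20.6% and 15.8% of all genes did, and 16 and 1 in WT-Tag, where 20.3% and 8.81% did. Of these 33 genes, 19 reached 1 FPKM in fewer than 3 cultures, among them Col20a1, Col2a1, Col5a3, Col9a1 and Col11a2, and 15 in no culture, so these 19 needed tumors to pass the filter and their higher level there is in part given by it. Tissue against culture, the Cre driver, the PDGFRα and Trp53 alleles and age differ together in this comparison and cannot be told apart.

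In the fibrillar class, Col11a2 was at 9.498 FPKM in the lowest, 28.2 in the median and 58.1 in the highest K27M tumor, with a mean of 0.281 in K27M hindbrain cultures (log2 change 4.52 ± 0.50, adjusted p 1.77e-09), and its change in WT-Tag was 3.78 ± 0.54. Col11a1 ranged from 6.74 over 42.0 to 112 FPKM in K27M tumors and lay wholly above the hindbrain K27M cultures (3.36 ± 0.59, adjusted p 9.93e-06); in WT-Tag its change was 2.60 ± 0.64, and WT-Tag tumor 10, at 4.67 FPKM, lay within the range of the WT-Tag cultures. The cartilage collagen gene Col2a1 had values of 1.70, 11.01 and 61.8 FPKM in K27M tumors (3.03 ± 0.81, adjusted p 0.0017), and did not pass in WT-Tag (1.95 ± 0.88, 0.0647). Col5a3 (2.03 and 2.13 in K27M and WT-Tag), Col1a2 (1.30 and 1.07), Col27a1 (1.10 and 1.28), Col5a1 (1.08 and 1.69) and Col24a1 (0.62 and 0.50) were higher in both genotypes. Col1a1 (0.51 ± 0.46 and 0.71 ± 0.49) and Col3a1 (0.86 ± 0.57 and 0.45 ± 0.61), the main collagens of connective tissue, did not pass in either.

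Col5a2 was the exception among the fibrillar chains. It was at 0.618, 2.00 and 9.88 FPKM in the lowest, median and highest K27M tumor and at 9.06 to 20.5 in hindbrain K27M cultures (-2.10 ± 0.40, adjusted p 3.21e-05), and at 0.868, 1.39 and 10.9 in WT-Tag tumors against 5.98 to 10.4 in WT-Tag cultures (-1.54 ± 0.43, 0.00386). Of the tumors, K27M tumor 14 lay within the range of its cultures and WT-Tag tumor 28 above the highest of its cultures, and the others lay below. Since Col5a1 moved the other way, the ratio of Col5a1 to Col5a2, 2 chains of the type V molecule, had medians of 1.71 and 2.28 in K27M and WT-Tag tumors and of 0.0854 to 0.111 in the 4 culture groups. The lowest ratio in any tumor was 0.469 and the highest in any culture 0.165. The ratio of Col11a2 to Col11a1 also differed, with medians of 0.751 and 0.455 in tumors and 0.0264 to 0.0894 in culture groups. WT-Tag tumors overlapped the cultures in this ratio, with the lowest such tumor at 0.0553 and the highest culture at 0.16.

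**Figure D5:**
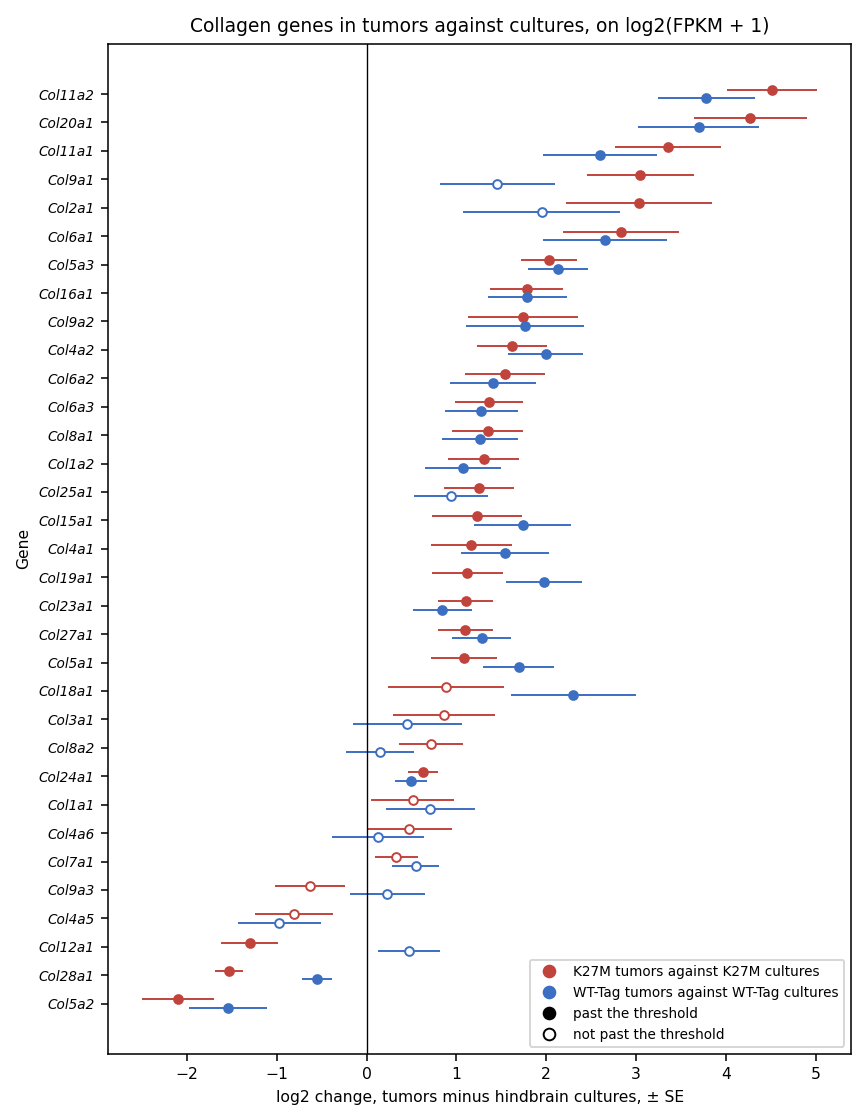
Log2 change (horizontal axis, ± SE) of 33 collagen genes (vertical axis) in K27M tumors against K27M hindbrain cultures and in WT-Tag tumors against WT-Tag hindbrain cultures, on log2(FPKM + 1); filled points passed the adjusted p threshold of 0.05. Most points lie to the right of 0. Col5a2, Col28a1 and Col4a5 lie to the left in both genotypes, with Col4a5 not past the threshold. Col12a1 lies at -1.31 in K27M and 0.47 in WT-Tag.

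In the fibril-associated class, Col20a1 was at 6.23, 38.0 and 108 FPKM in the lowest, median and highest K27M tumor (4.27 ± 0.63, adjusted p 5.2e-07) and at 1.44, 22.7 and 91.2 in WT-Tag tumors (3.70 ± 0.68), wholly above the cultures of the same allele. Col16a1 rose by 1.78 ± 0.40 in K27M and 1.79 ± 0.44 in WT-Tag, Col19a1 by 1.12 ± 0.39 and 1.98 ± 0.42, and Col9a2 by 1.74 ± 0.61 and 1.76 ± 0.66. Col9a1 rose by 3.05 ± 0.60 in K27M and did not pass in WT-Tag (1.46 ± 0.64, adjusted p 0.0608). Its close partner Col9a3 had changes of -0.63 ± 0.39 (0.156) and 0.23 ± 0.42 (0.669), so the ratio of Col9a1 to Col9a3 had medians of 0.720 and 0.321 in K27M and WT-Tag tumors and of 0.0215 to 0.0903 in the culture groups. WT-Tag tumors overlapped the cultures in this ratio, with the lowest such tumor at 0.0704 and the highest culture at 0.109. The lowest K27M tumor was at 0.156. Col12a1, high in hindbrain K27M cultures, was at 0.703, 1.84 and 6.48 FPKM in K27M tumors (-1.31 ± 0.32, adjusted p 0.000747), and had a change of 0.47 ± 0.35 (0.263) in WT-Tag. Against forebrain K27M cultures, Col12a1 had a change of -0.10 ± 0.32 in K27M tumors (adjusted p 0.802), so its lower level held against hindbrain cultures only.

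Col28a1 was at 0.070, 0.176 and 1.29 FPKM in the lowest, median and highest K27M tumor, below all hindbrain K27M cultures (-1.53 ± 0.16, adjusted p 2.24e-10), and at most at 0.430 in WT-Tag tumors (-0.55 ± 0.17, 0.00733). The hindbrain K27M cultures ranged from 1.34 to 4.40 FPKM, while the SE comes from 1 spread shared by all 41 libraries, 29 of them tumors. Against forebrain cultures, in which this gene is near 0, its change was 0.19 in K27M and 0.24 in WT-Tag. The type VI genes were higher in tumors of both genotypes, with changes of 2.83 ± 0.64 and 2.66 ± 0.69 for Col6a1, 1.54 and 1.41 for Col6a2 and 1.36 and 1.28 for Col6a3. Of the short-chain genes, Col8a1 rose (1.35 and 1.26) and Col8a2 did not pass (0.71 and 0.15). The membrane-spanning Col23a1 rose in both (1.10 and 0.84), and Col25a1 in K27M (1.25, and 0.94 with adjusted p 0.0619 in WT-Tag).

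In the basement membrane class, Col4a1 was at 9.47, 26.03 and 80.5 FPKM in the lowest, median and highest K27M tumor (1.17 ± 0.45, adjusted p 0.0258) and at 8.79, 33.8 and 64.6 in WT-Tag tumors (1.54 ± 0.49, 0.00982). Its low end overlapped the cultures in both. Col4a2 was at 5.86, 12.9 and 44.0 FPKM in K27M (1.62 ± 0.39, adjusted p 0.000532) and at 5.33, 15.9 and 32.7 in WT-Tag tumors (2.00 ± 0.42, 0.000196), without overlap. The ratio of Col4a2 to Col4a1 was 0.394 to 0.751 in the tumors and 0.267 to 0.417 in the cultures. Col4a5 (-0.81 ± 0.43 and -0.97 ± 0.47) and Col4a6 (0.48 ± 0.48 and 0.12 ± 0.51) did not pass. Of the multiplexins, Col15a1 rose in both (1.23 ± 0.50 and 1.74 ± 0.54), whereas Col18a1 rose in WT-Tag (2.30 ± 0.70, adjusted p 0.00702) and had a change of 0.89 ± 0.65 (0.236) in K27M, and Col7a1 of the anchoring fibrils did not pass (0.33 and 0.54). The difference between the genotypes in these changes was not tested.

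Endothelial markers were higher in tumors for 11 of 11 genes tested in each genotype, microglial markers for 12 of 12, fibroblast and meningeal markers for 5 of 9 in K27M and 3 of 9 in WT-Tag with 2 lower in each, and pericyte markers for 6 of 10 in each. The summed fibroblast and meningeal markers had medians of 19.3 FPKM (8.14 to 38.9) in K27M and 18.1 (6.82 to 84.5) in WT-Tag tumors. Single cultures lay at 4.25 to 13.7 FPKM, so the ranges overlapped. The part of all these markers in the collagen differences was not tested. With each library scaled to the same sum the median change over all genes moved from 0.10 to -0.05 in K27M and from 0.16 to 0.04 in WT-Tag, and 24 and 22 collagens passed. Leaving out 1 library at a time gave 22 to 26 in K27M. In WT-Tag it gave 14 to 25, with 14 without hindbrain WT-Tag culture 1.

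Genes of collagen modification were more often lower than higher in tumors. All list counts against cultures stand beside 33.1% of all genes higher and 26.5% lower in K27M, and 28.9% higher and 17.4% lower in WT-Tag; the 3 of 9 receptors higher in each genotype are near these shares. Of 18 modification and folding genes, 3 were higher and 11 lower in K27M tumors than in cultures, and 4 higher and 7 lower in WT-Tag. The collagen chaperone gene Serpinh1 had means of 32.6 and 35.6 FPKM in K27M and WT-Tag tumors and 188 and 147 in hindbrain K27M and WT-Tag cultures (-2.85 ± 0.60 and -2.33 ± 0.65). Glt25d2 (-2.40 and -1.48) and Plod2 (-2.18 and -1.60) were lower too, while the prolyl hydroxylases Leprel1 (1.56 and 1.94) and P4ha3 (1.00 and 1.03) and the lysyl hydroxylase Plod3 (0.70 and 0.98) were higher in both. Fkbp14 was higher in WT-Tag (1.04) and had a change of -0.10 in K27M. Cultures with little collagen transcript thus held more of several transcripts for its modification.

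Of 11 processing genes, 5 were higher and 2 lower in K27M and 7 higher and none lower in WT-Tag tumors. Pcolce2 (1.48 and 1.31) and Pcolce (1.42 and 2.23), enhancers of C-propeptide removal, were higher in both, as was the cross-linking enzyme Lox (1.03 and 0.94). Adamts14 was higher in WT-Tag (1.04), while Loxl2 (-1.46) was lower in K27M. Adamts3 was lower in K27M tumors than in K27M cultures (-0.98 ± 0.21) and higher in WT-Tag tumors than in WT-Tag cultures (1.01 ± 0.23). This gene was itself higher in hindbrain K27M than in WT-Tag cultures, so the opposite directions do not by themselves show a difference between the tumors. Of 9 receptors, 3 were higher in each genotype, Lair1 (2.43 and 2.33), Ddr2 (1.77 and 2.07) and Itga1 (1.39 and 1.54), and 3 lower in K27M and 1 in WT-Tag, with Gpr56 lower in both (-1.43 and -1.39) and Itgb1 (-1.02) and Mrc2 (-0.66) in K27M. Of 11 degradation genes, 8 were higher in each genotype, led in K27M by Mmp16 (2.32), Timp3 (2.29) and Timp2 (1.61) and in WT-Tag by Timp3 (2.31), Mmp2 (1.75) and Timp1 (1.67), with Mmp15 (-1.15) and Mmp14 (-0.81) lower in K27M and Timp4 (-1.10) in WT-Tag.

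Of 17 basement membrane partners, 4 were higher and 6 lower in K27M and 3 higher and 4 lower in WT-Tag tumors. Sparc (2.22 and 3.32) and Lama1 (1.27 and 1.35) were higher in both, as was Lamc3 (0.65 and 0.54), with Lama2 (0.99) in K27M, and Npnt (-2.19 and -2.50), Lama5 (-2.03 and -1.73) and Lamb2 (-1.30 and -1.03) were lower in both. Of 16 interstitial partners, 9 were higher and 4 lower in K27M and 8 higher and 3 lower in WT-Tag. Dcn (2.66), Thbs2 (2.62) and Vcan (2.30) led in K27M and Tgfbi (2.75), Thbs2 (2.72) and Postn (2.34) in WT-Tag. Fbln2 (-5.46 and -2.94), Tnc (-3.02 and -2.48) and Fbln1 (-1.53 and -1.03) were lower in both, and Thbs1 (-2.30) in K27M. All these comparisons of tumors with cultures use the same hindbrain cultures as K27M against WT-Tag cultures above. Genes that differed between those cultures include Fbln2, Tnc, Thbs1, Sparc, Adamts3, Plod2, Glt25d2, Mrc2, Mmp16 and Timp4.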

How the data were processed

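Per the labels' protocols, Trizol was used to extract RNA and a kit that keeps strand to make total RNA libraries. The submitters' processing notes name CASAVA, TopHat2, STAR and mm9. No source used here gives the counting tool, the annotation or the use of strand. FPKM values were taken as the authors deposited them. Log2(FPKM + 1) was tested with limma 3.58.1 in R 4.3.3 (mean trend, 2-sided, Benjamini-Hochberg over all genes, threshold 0.05). A gene needed 1 FPKM in at least 9 of 29 tumors, 3 of 12 cultures, or 3 of 41 libraries in the fit of tumors with cultures. Each fit used 1 spread per gene for all its groups, so with tumors and cultures together it leaned on the 29 tumors. Fits were run on simulated data with known changes. A limit on false calls was set only where all groups had the same simulated spread, whereas real tumors vary more than cultures. Changes are on the log2(FPKM + 1) scale, which understates those of low genes. The labels do not state which animal gave each library, so p-values measure the spread between these libraries.

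All collagens past the threshold are named, otherwise the 3 largest changes each way; the 10 highest genes are described in every group, and up to 3 genes per direction of 6 pathway lists. The members and lists were chosen with earlier results of these data known. The fits have no block. Deviations from group means over 13190 genes of same-numbered cultures of the 2 genotypes correlated at 0.41, 0.15 and 0.44 in hindbrain, so the experiment numbers are taken to pair those, and at 0.44, -0.23 and 0.35 in forebrain; cultures with 1 culture letter correlated at 0.67, 0.71 and 0.17 in WT-Tag and at 0.22, -0.05 and -0.04 in K27M. Blocked fits are given where they change a call. Alternatives changed the pseudocount, filter, scaling, block, libraries and groups.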

Additional observations from a re-analysis of the deposited data

Results flagged for a closer look

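In 7 of the 28 collagen genes tested in tumors, 1 of the 9 WT-Tag tumors lay far from the others. The gap to the next tumor was more than 0.493 of the whole range on log2(FPKM + 1). The rule was run on collagen genes alone, so the share of all genes with such a gap is not known. Chance gives such a gap in about 1 in 20 groups if values are normally distributed, which was not tested. The genes are not independent, since 6 of the 7 concern the same tumor. In WT-Tag tumor 28, Col3a1 was at 37.2 FPKM with the next tumor at 4.32, Col6a3 at 14.048 with the next at 2.68, and Col1a2 at 13.2 with the next at 1.90. In the same tumor Col8a1 was at 12.4 with the next at 1.78, Col5a2 at 10.9 with the next at 2.42, and Col12a1 at 7.01 with the next at 2.25. Its fibroblast and meningeal marker sum of 84.5 FPKM was the highest of the group, and the part of those markers was not tested. In WT-Tag tumor 9, Col4a5 was at 20.7 FPKM with the next tumor at 6.09; the Xist level of this tumor, 54.5 FPKM, went against its male label.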

How the results depend on the processing

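In hindbrain cultures, K27M against WT-Tag, the 6 collagen calls became 5 with a pseudocount of 0.1 (Col28a1 and Col5a1 lost, Col18a1 gained), 3 without the level filter, 3 with each library scaled to the same sum, 1 without experiment 3, 1 with the 2 groups alone, and 2 to 8 when 1 culture was left out; over all genes the 1787 calls became 1748, 1045, 517, 97, 286 and 554 to 4212. The 0 calls between regions in WT-Tag became 1 with a pseudocount of 0.1, 1 with sum scaling and 0 to 1 on leaving out a culture; the 7 in K27M became 2 without experiment 3 and 4 to 6 on leaving out a culture. The difference of the K27M effects gave 0 to 3 on leaving out a culture, the K27M tumors against cultures 22 to 26 and the WT-Tag tumors against cultures 14 to 25, beside 25 and 22. Between K27M and WT-Tag tumors 0 collagens passed under the 7 other settings run and under the 29 omissions of a tumor, and 0 in forebrain cultures under the 7 other settings and 6 omissions. Against forebrain in place of hindbrain cultures, Col28a1 turned from lower to higher (0.19 in K27M, 0.24 in WT-Tag), as its forebrain level is near 0. In K27M, Col12a1 (-0.10, adjusted p 0.802) and Col15a1 (1.005, 0.0779) did not pass against forebrain cultures. Col1a1 with Col9a1 turned to r = 0.19 within K27M, and Col8a1 with Col8a2 to r = -0.30 within WT-Tag tumors. The cause was not tested for the other changes. With the experiment number as a replicate block the counts were 0 and 7 for the genotype in forebrain and hindbrain (Col18a1 gained), 0 for their difference, and 0 and 7 between regions in WT-Tag and K27M; with the culture letter as a block the last 2 were 0 and 6. Tumors carry no shared replicate numbers, so no block was fitted for them. Depth could not be read directly from FPKM, which limits what can be said of genes near 0.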
